A study of Homo sapiens with 8 samples.

Results

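The mRNAs described here encode the proteins of the small subunit of the cytosolic ribosome. They were chosen by gene symbol, as RPS followed by a number and at most 1 of the letters A, X or L, with RPSA and FAU added, which leaves out kinases, readthrough genes and pseudogenes; 31 of the 26902 entries of the deposited table fit. RPS9 and RPS18 were not analysed here. All 31 averaged 1 TPM or more across the 8 libraries and so passed the filter on low values (TPM is an mRNA's share of a library, corrected for transcript length). Libraries came from U2OS cells, an established osteosarcoma line, that overexpressed QKI7, which is a splice form of QKI, a protein that binds RNA, or that carried an empty vector. Both kinds of cells, and so all groups, had been kept in 0.5 mM sodium arsenite (NaAsO2) for 1 h before harvest, an oxidative stress. There were 2 QKI7 input, 2 vector input, 2 QKI7 footprint and 2 vector footprint libraries, where an input is RNA of the lysate after removal of ribosomal RNA and footprints are the 17 to 34 nt fragments that ribosomes protect from nuclease. No cells without arsenite were analysed here. Neither separate cultures for the 2 libraries of a group nor the clonality of the overexpressing cells is stated, so p-values rest on a library spread that may be purely technical.

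QKI stood at 1749 and 1580 TPM in QKI7 inputs, against 3.01 and 3.45 TPM in vector inputs, as the labels say. Protein-coding entries held 4.37% ± 0.198 of all TPM in QKI7 inputs and 3.85% ± 0.197 in vector inputs, and 0.614% ± 0.00469 in QKI7 footprints and 0.628% ± 0.00219 in vector footprints (SD, n = 2 each), the rest being mostly ribosomal and small RNA. Read depth cannot be had from TPM and is unknown. In inputs, 10 of 12 markers of mesenchymal and osteosarcoma cells were at 1 TPM or more in both constructs; 2 of 5 epithelial markers were as well, 1 of 4 neural markers and 0 of 5 blood markers. The 12 mesenchymal markers summed to 178 to 190 TPM in QKI7 inputs and 194 to 199 TPM in vector inputs, and the 5 epithelial ones to 36.6 to 40.3 TPM in QKI7 inputs and 44.2 to 44.7 TPM in vector inputs; the part of this in the results was not tested.

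The small subunit binds mRNA and reads its codons. Its head, the part nearest the incoming and outgoing tRNAs, moves against a body and a platform as the ribosome steps along the mRNA. In vertebrates nearly all ribosomal protein mRNAs begin with a cytosine followed by a run of pyrimidines, the 5′ terminal oligopyrimidine (TOP) motif, and are translated or held back together under the control of the kinase mTOR and the cap-binding protein LARP1. A ribosome holds 1 copy of nearly every such protein, and the mRNAs are usually among the most heavily translated of a growing cell.

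The TOP motif is shown first because many members share it and the choice of members did not use it. RefSeq start sites (GRCh38.p14) were at hand for 24 members, and 17 of these (70.8%) had at least 1 annotated start at a C followed without a break by 4 or more C or T. The same held for 988 of 15843 protein-coding genes (6.24%) and for 4.07% of all 35116 annotated starts, read on the transcribed strand only. Of the large-subunit genes, 28 of 38 had it. Below are the 10 bases before and the 15 bases from the start of 10 members, 5′ to 3′ on the transcribed strand, with the run of a TOP motif in capitals and no capitals where these letters were not found at the start.
RPS12, chr6:132814559-132814583, plus strand: cggatgaggcCTCTTTCCCTgccgc
RPS13, chr11:17077653-17077677, minus strand: ctctcgctctCCTTTCgttgcctga
RPS3A, chr4:151099618-151099642, plus strand: cccacttccgCCCTTTTggctctct
RPS6, chr9:19380222-19380246, minus strand: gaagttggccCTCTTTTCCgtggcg
RPS24, chr10:78033853-78033877, plus strand: aatcgtggttCTCTTTTCCTCCTTg
RPS27A, chr2:55232678-55232702, plus strand: ggcgttcttcCTTTTCgatccgcca
FAU, chr11:65122120-65122144, minus strand: tcgcttcttcCTCTTTCTCgactcc
RPS15, chr19:1438386-1438410, plus strand: aggcgcggaccaaagcgatctcttc
RPS26, chr12:56041908-56041932, plus strand: acataacctcgattttcttccgcca
RPS27L, chr15:63157463-63157487, minus strand: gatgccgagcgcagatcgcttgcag
RPS12, RPS13 and RPS3A are given because their footprints fell most relative to their inputs, RPS6, RPS24, RPS27A and FAU as further members with the motif, and RPS15, RPS26 and RPS27L as members whose annotated start has none; the other members without it were RPS4X, RPS7, RPS28 and RPS29. The longest run was 14 bases, in RPS24. RPS2, RPS15A and RPS20 are among those with no entry. An annotated start can lie some bases from the one a cell uses, so a missing motif says only that the run does not begin at that base.

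Levels of the 27 members given one by one differed far more in inputs than in footprints. In QKI7 inputs their mean TPM ran from 0.615 (RPS29) to 35.9 (RPS6), a 58.4-fold range, and in vector inputs from 0.885 (RPS29) to 57.5 (RPS15), a 65-fold range. In QKI7 footprints the range was 14.1-fold, from 1.74 (RPS23) to 24.5 TPM (RPS26), and in vector footprints 8.72-fold, from 3.03 (RPS23) to 26.4 TPM (RPS15A). For the large-subunit mRNAs the range was 255-fold in QKI7 inputs and 111-fold in QKI7 footprints, against 325-fold and 141-fold with the vector. Of all members, between 10 and 30 TPM lay 20 of 31 members in QKI7 footprints and 23 in vector footprints, but 13 of 31 in the inputs of each construct. Highest in inputs among the 27 were RPS15, a head protein whose tail reaches the decoding centre, RPS6, the substrate of S6 kinases, and RPS25, a head protein needed by some viral internal ribosome entry sites. Lowest were RPS29, a zinc-binding head protein, at 0.56 and 0.67 TPM in QKI7 inputs, against 0.80 and 0.97 TPM in vector inputs, and RPS23, a protein of the decoding centre, at 1.08 and 1.23 TPM in QKI7 inputs, against 1.12 and 1.19 TPM in vector inputs. The next lowest input was that of RPS27L in both constructs. In footprints RPS26, RPS15 and RPS21 stood highest and RPS23, RPS27L and RPS7 lowest with QKI7, against RPS15A, RPS21 and RPS13 highest and RPS23, RPS2 and RPS27L lowest with the vector. Across the 31 members, log2 input and log2 footprint levels had a Pearson r of 0.32 in QKI7 cells and 0.21 in vector cells; the points share the annotation and the mapping, and the value is a description.

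**Figure D1:**
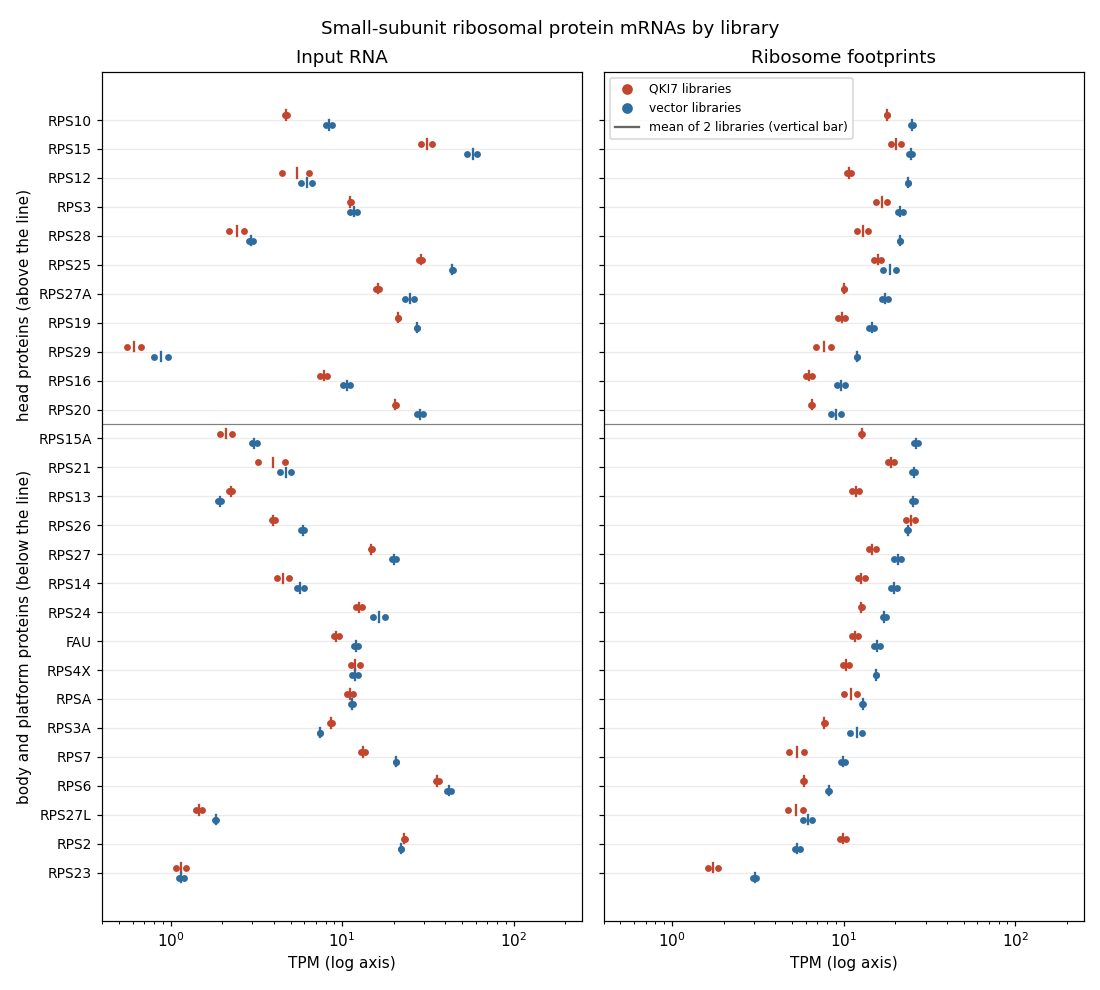
TPM (log axis) of 27 member mRNAs in the QKI7 libraries (red points, upper row of each pair) and vector libraries (blue points, lower row), for input RNA on the left and ribosome footprints on the right; short vertical bars are means of 2 libraries. For the 27 members drawn, inputs span 0.615 to 57.5 TPM by group mean and footprints 1.74 to 26.4 TPM, and in footprints both QKI7 points lie to the left of both vector points except for RPS2, RPS26 and RPS27L.

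RefSeq places the 7SL RNA gene RN7SL1 inside the span of RPS29, and that RNA stood at 144857 to 165148 TPM in the 4 inputs; whether it bears on the low value of RPS29 was not tested. The table also holds 11 pseudogene entries named after small-subunit genes, which together had 16.7 and 18.1 TPM in QKI7 inputs and 12.97 and 13.5 TPM in vector inputs, and 12.2 and 12.9 TPM in QKI7 footprints and 13.8 and 13.9 TPM in vector footprints. Reads shared with such copies can be split in ways the sources used here do not give, so single levels are uncertain. RPSAP58 had 5.11 and 6.08 TPM in QKI7 footprints and 6.36 and 5.97 TPM in vector footprints.

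As a group, the members took a smaller part of mRNA with QKI7 in both library types. They made up 1.01% ± 0.0118 of protein-coding TPM in QKI7 inputs and 1.62% ± 0.015 in vector inputs (SD, n = 2 each). In footprints the shares were 5.96% ± 0.145 with QKI7 and 8.25% ± 0.0406 with the vector. The libraries of the constructs did not overlap in either case, and 2 against 2 libraries allow no exact permutation p below 0.333. Large-subunit mRNAs went the same way. They made up 2.57% ± 0.0148 of protein-coding TPM in QKI7 inputs and 4.24% ± 0.069 in vector inputs (SD, n = 2 each). Their footprint shares were 9.35% ± 0.0735 with QKI7 and 13.1% ± 0.118 with the vector. In bulk libraries, less of an mRNA per cell and fewer cells that hold it cannot be told apart. In each footprint library 22 or 23 of the 31 members were among the 100 highest of 18717 protein-coding entries, against 2 in each QKI7 input and 5 in each vector input.

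Within each construct the members carried many footprints for their input level. The ratio of mean footprint to mean input TPM had a median over members of 0.993 in QKI7 cells and 1.30 in vector cells, against 0.0404 and 0.0414 over all protein-coding entries tested. On the log2 scale the member median lay 4.62 above that of all mRNAs with QKI7 and 4.97 above it with the vector, and all 31 members were above it in both. The large-subunit medians were 4.31 and 4.36 above it, so both subunits stood near the upper end. RPS29 had the highest ratio, 12.5 with QKI7 and 13.6 with the vector, followed by RPS26 (6.18) and RPS15A (6.03) in QKI7 cells and by RPS13 (13.2) and RPS15A (8.61) in vector cells. At the low end of the members given one by one were RPS6, with 0.163 in QKI7 cells and 0.195 in vector cells, and RPS20, with 0.319 in each construct. RPS7 was the next lowest with QKI7 (0.404, against 0.48 with the vector). RPS2 had 0.43 in QKI7 cells and 0.246 in vector cells, and was among the 3 lowest only with the vector. The log2 ratios of the constructs went together (Pearson r = 0.96 over 31 members, with footprint and input values from separate libraries in each construct). Single members still moved in both directions: RPS13 went from 13.2 with the vector to 5.26 with QKI7, and RPS26 from 4.01 to 6.18. Input and footprint libraries differ in composition, so these ratios rank mRNAs within a construct and are not a number of ribosomes per mRNA; no test was made.

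**Figure D2:**
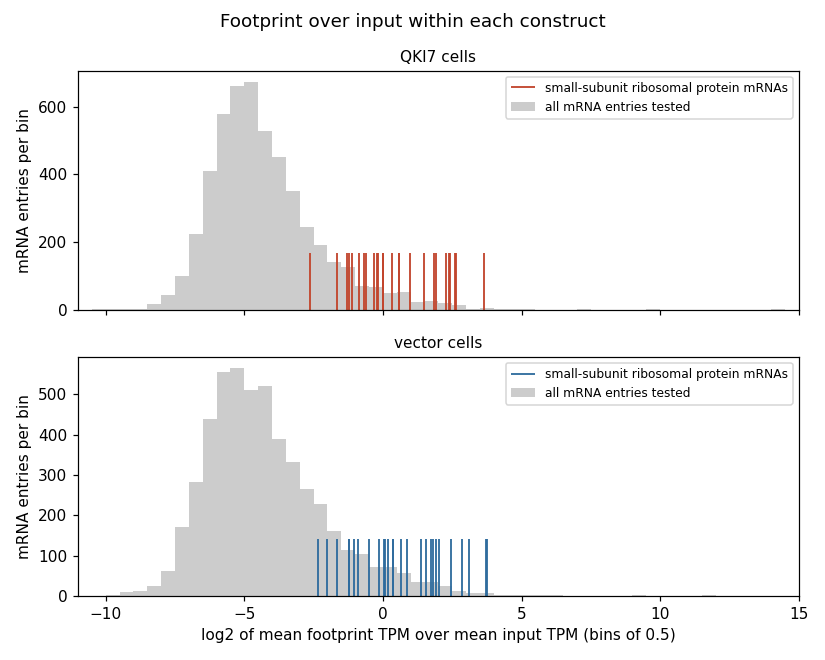
Histograms of log2 mean footprint TPM over mean input TPM for all protein-coding entries tested (grey, bins of 0.5), with each of 27 members as a coloured line, in QKI7 cells above and vector cells below. The member lines lie in the upper part of both histograms, where the medians of all 31 members are -0.01 with QKI7 and 0.37 with the vector and those of all mRNAs are -4.63 and -4.59.

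The input comparison asks whether the level of these mRNAs differed with QKI7. Of the 31 members, 19 fell and 0 rose, where 5.48% of all entries tested fell and 39.1% rose (limma on log2(TPM + 1), Benjamini-Hochberg adjusted p under 0.05 over 5806 entries; 20 lower and 0 higher at an unadjusted p under 0.05). The median log2 change of the members was -0.35, and -0.50 relative to the median of all entries, which was 0.15. Of 13 head proteins 9 fell and of 18 body and platform proteins 10 fell. After removal of ribosomal, small and histone RNA and spike-ins and rescaling of the rest, here called the mRNA scale, 17 of 31 fell and 0 rose, where 0.546% of 16676 entries fell and 0.0480% rose.

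Among head proteins, RPS15 fell most, with 33.4 and 28.9 TPM in QKI7 inputs, against 53.8 and 61.3 TPM in vector inputs (log2 change -0.87, SE 0.114, adjusted p = 0.00177). RPS10, a head protein that ZNF598 ubiquitylates on collided ribosomes, had 4.65 and 4.77 TPM in QKI7 inputs, against 8.05 and 8.78 TPM in vector inputs (log2 change -0.72, SE 0.075, adjusted p = 0.00118). In both, the QKI7 values lay well under the vector values; RPS10 overlaps the readthrough gene RPS10-NUDT3, which had 0.80 to 1.03 TPM in the 4 inputs. RPS25 had 28.1 and 29.2 TPM in QKI7 inputs, against 43.7 and 43.98 TPM in vector inputs (log2 change -0.60, SE 0.103, adjusted p = 0.00361). RPS27A, made as a fusion with ubiquitin, had 16.4 and 15.8 TPM in QKI7 inputs, against 23.4 and 26.2 TPM in vector inputs (log2 change -0.59, SE 0.086, adjusted p = 0.00226). RPS20, the other main ZNF598 substrate of the head, had 20.2 and 20.6 TPM in QKI7 inputs, against 27.2 and 29.8 TPM in vector inputs, a fall by 0.46 on the log2 scale (adjusted p = 0.00503). None of these head mRNAs had overlapping groups. RPS16 and RPS19 fell by 0.39 and 0.35 on the log2 scale (adjusted p = 0.00921 and 0.0106), with the call of RPS16 kept in 6 of the 8 fits that left out 1 library, while RPS3, RPS12, RPS28 and RPS29 did not pass the test.

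In the body and platform, RPS7, needed for early processing of the small-subunit rRNA, had 13.6 and 13.00 TPM in QKI7 inputs, against 20.6 and 20.5 TPM in vector inputs (log2 change -0.60, SE 0.096, adjusted p = 0.00297). Its QKI7 values were lower without overlap, at 0.644 times the vector TPM. RPS26, which lines the mRNA exit channel, had 4.05 and 3.89 TPM in QKI7 inputs, against 5.73 and 6.03 TPM in vector inputs (log2 change -0.47, SE 0.081, adjusted p = 0.00361). RPS27, a zinc-binding protein, had 14.7 and 14.99 TPM in QKI7 inputs, against 19.5 and 20.7 TPM in vector inputs (log2 change -0.41, SE 0.088, adjusted p = 0.00746), and FAU, made as a fusion with a ubiquitin-like protein, 9.53 and 8.96 TPM in QKI7 inputs, against 11.7 and 12.4 TPM in vector inputs (log2 change -0.35, SE 0.084, adjusted p = 0.0126). RPS6 fell by 0.22 (adjusted p = 0.0454), with 36.8 and 35.02 TPM in QKI7 inputs, against 40.8 and 43.2 TPM in vector inputs; its call ended in each of the 8 fits that left out 1 library (adjusted p up to 0.141). RPS14, RPS15A and RPS24 also fell, by 0.28, 0.39 and 0.36 on the log2 scale; RPS14, RPS24 and FAU kept the input call in 1, 6 and 7 of the 8 such fits.

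Some body proteins stood at equal or higher input levels with QKI7. RPS13 had 2.28 and 2.19 TPM in QKI7 inputs, against 1.90 and 1.96 TPM in vector inputs (log2 change 0.14, adjusted p = 0.141), RPS3A, a platform protein, 8.55 and 8.67 TPM in QKI7 inputs, against 7.44 and 7.47 TPM in vector inputs (log2 change 0.18, adjusted p = 0.11) and RPS2, at the mRNA entry channel, 22.9 and 23.2 TPM in QKI7 inputs, against 21.9 and 21.9 TPM in vector inputs (log2 change 0.07, adjusted p = 0.477). The QKI7 libraries were above the vector libraries in these 3 members, as in 57.8% of all entries tested, and below them in 22 members, as in 11.6% of entries. On the mRNA scale their changes were 0.02 for RPS13, 0.01 for RPS3A and -0.12 for RPS2, so the direction of RPS2 turned with the scale. RPS13 and RPS3A reached -0.04 and -0.05 at their lowest under the other alternatives, so the direction of all 3 depends on the processing. RPS4X, RPS23 and RPSA had overlapping groups and log2 changes of 0.00, -0.00 and -0.04; RPSA also serves as the precursor of a laminin receptor. RPS27L, a p53-induced paralogue of RPS27, had 1.52 and 1.40 TPM in QKI7 inputs, against 1.85 and 1.81 TPM in vector inputs and did not pass (-0.20, adjusted p = 0.111), nor did RPS21 (-0.22, adjusted p = 0.215).

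The footprint comparison asks whether ribosome-protected fragments of these mRNAs differed. Of the 31 members, 21 fell and 1 rose, where 4.60% of all entries tested fell and 3.60% rose; the median log2 change was -0.46, or -0.47 relative to all entries. The QKI7 libraries lay below the vector libraries in 28 members (22.4% of all entries) and above them in 1 (30.4% of entries). On the mRNA scale 22 fell and 1 rose, where 3.98% of entries fell and 8.04% rose. Among the 5102 protein-coding entries tested, RPS12 had the lowest footprint change of all, RPS13 the third lowest and RPS15A the sixth lowest, on a scale that favours abundant mRNAs.

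Of the head proteins, 9 of 13 fell. RPS12 (chromosome 6, 132814569 to 132817564), a protein of the beak of the head, had 10.97 and 10.5 TPM in QKI7 footprints, against 23.8 and 23.6 TPM in vector footprints (log2 change -1.07, SE 0.140, adjusted p = 0.00366). RPS27A had 10.1 and 10.1 TPM in QKI7 footprints, against 16.8 and 18.1 TPM in vector footprints (log2 change -0.74, SE 0.086, adjusted p = 0.00217), and RPS28, near the mRNA exit, 12.03 and 13.9 TPM in QKI7 footprints, against 21.3 and 21.4 TPM in vector footprints (log2 change -0.68, SE 0.096, adjusted p = 0.00433). In all 3 the constructs did not overlap, and RPS12 footprints with QKI7 were 0.453 times those with the vector. RPS10, RPS16, RPS19, RPS20 and RPS29 fell by 0.46, 0.55, 0.54, 0.42 and 0.59 on the log2 scale (adjusted p = 0.00799, 0.00797, 0.00577, 0.0246 and 0.00756), of which RPS10, RPS16 and RPS20 kept the call in 7, 6 and 5 of the 8 fits that left out 1 library, and RPS19 and RPS29 in all 8. RPS15, lowest of the members by input change, had 18.9 and 21.6 TPM in QKI7 footprints, against 25.1 and 24.1 TPM in vector footprints and did not pass (log2 change -0.27, adjusted p = 0.244); nor did RPS3 and RPS25 (-0.35 and -0.22).

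Of the body and platform proteins, 12 of 18 fell. RPS13 (chromosome 11, 17074388 to 17077667) had 11.2 and 12.3 TPM in QKI7 footprints, against 24.9 and 25.96 TPM in vector footprints (log2 change -1.05, SE 0.072, adjusted p = 0.000176), RPS15A 12.6 and 12.9 TPM in QKI7 footprints, against 27.1 and 25.7 TPM in vector footprints (SE 0.078 of the log2 change, adjusted p = 0.00039) and RPS7 5.91 and 4.79 TPM in QKI7 footprints, against 9.61 and 10.2 TPM in vector footprints (log2 change -0.78, SE 0.096, adjusted p = 0.00273). With QKI7 their footprints were 0.461, 0.482 and 0.541 times those with the vector, and these calls held in each of the 8 fits that left out 1 library. RPS6 had 5.83 and 5.87 TPM in QKI7 footprints, against 8.22 and 8.14 TPM in vector footprints (log2 change -0.42, SE 0.076, adjusted p = 0.0125), RPS27 15.4 and 14.02 TPM in QKI7 footprints, against 19.6 and 21.6 TPM in vector footprints (log2 change -0.46, SE 0.088, adjusted p = 0.0165) and FAU 11.1 and 12.2 TPM in QKI7 footprints, against 14.9 and 16.3 TPM in vector footprints (log2 change -0.40, SE 0.084, adjusted p = 0.027). Each of these was lower without overlap, but the calls of RPS6, FAU and RPS27 ended in 4, 4 and 2 of those 8 fits. RPS3A, RPS4X, RPS14, RPS23 and RPS24 fell as well, by 0.42 to 0.61 on the log2 scale; the calls of RPS24 and RPS4X ended in 4 and 2 of those 8 fits. RPS21 and RPSA were lower in both QKI7 footprint libraries than in either vector library and did not pass (-0.42 and -0.21, adjusted p = 0.113 and 0.274). RPSA had 12.02 and 10.1 TPM in QKI7 footprints, against 13.04 and 12.8 TPM in vector footprints.

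RPS2 (chromosome 16, 1962058 to 1964826, GRCh38.p14) went the other way. It had 10.4 and 9.49 TPM in QKI7 footprints, against 5.18 and 5.58 TPM in vector footprints (log2 change 0.78, SE 0.078, adjusted p = 0.00125), 1.85 times as much with QKI7, while its input did not pass the test. It took 2.90% and 2.54% of the summed member TPM in QKI7 footprints, against 1.01% and 1.07% in vector footprints, and the call held under all 17 alternative settings. RPS26 footprints, at 23.1 and 25.96 TPM in QKI7 footprints, against 23.7 and 23.5 TPM in vector footprints, overlapped between constructs (log2 change 0.05, adjusted p = 0.915) although its input had fallen. RPS27L footprints overlapped too, at 4.72 and 5.81 TPM in QKI7 footprints, against 5.81 and 6.54 TPM in vector footprints (log2 change -0.20, adjusted p = 0.311).

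**Figure D3:**
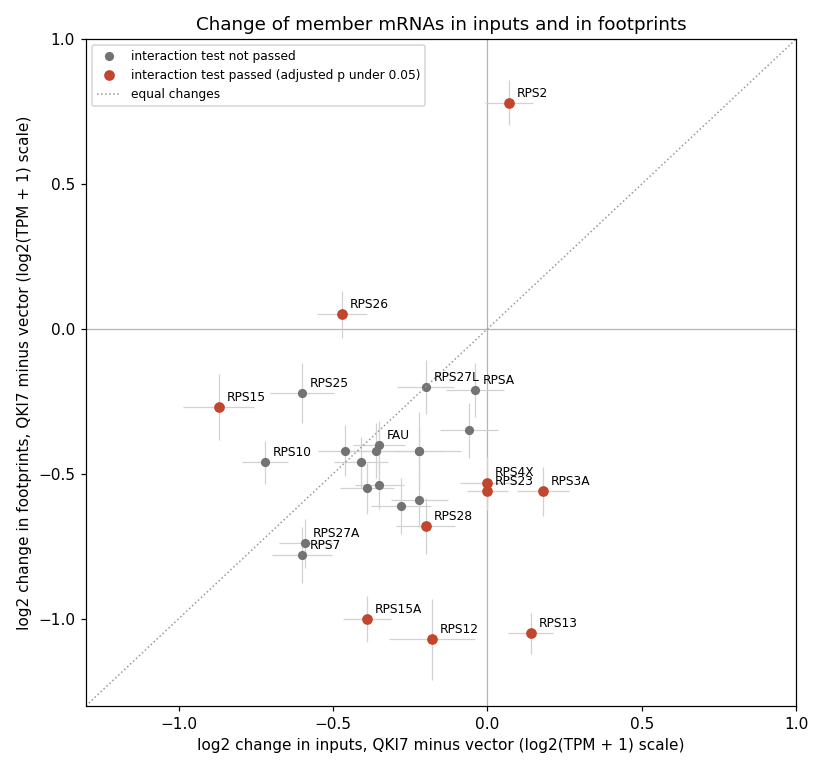
Log2 change in footprints (vertical axis) against log2 change in inputs (horizontal axis), QKI7 minus vector on the log2(TPM + 1) scale, for 27 members; grey bars are SE of the fit, the dotted line marks equal changes and red points passed the interaction test. RPS13, RPS12 and RPS15A lie lowest with input changes of 0.14, -0.18 and -0.39, RPS15 lies farthest left with a footprint change of -0.27, and RPS2 stands alone at the top.

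Inputs and footprints differed in which members they called. Of the 31 members, 14 fell in both. Another 5 fell in inputs without passing in footprints (RPS15, RPS25 and RPS26 among them). A further 7 fell in footprints without passing in inputs (RPS3A, RPS4X, RPS12, RPS13, RPS23, RPS28 and RPS29). RPS3, RPS21, RPS27L and RPSA passed in neither. Among all entries tested, 5.48% fell in inputs and 4.60% in footprints. The same split over all entries is not given here, so whether that of the members is unusual cannot be judged. Across members the input and footprint changes had an r of 0.01 (n = 31), or -0.24 without RPS2 (n = 30), as a description over genes that share the libraries; over 47 large-subunit mRNAs it was 0.34. The interaction of library type and construct, called translation efficiency here, tests for each member whether its changes differed. It passed for 10 members, 7 lower and 3 higher. With TPM as deposited, lower calls made up 21.6% of all entries and 22.6% of members, and higher calls 3.57% of all entries and 9.68% of members. The share of lower members was thus near the background on that scale, but not on the mRNA scale. There 0.282% of all entries and 3.23% of members were lower, and 1.18% and 16.1% were higher. The median of members as deposited was -0.15, or 0.01 relative to all entries. On the mRNA scale it was 0.05, or -0.03 relative to all entries.

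The lower members were led by RPS13, whose translation efficiency change was -1.20 (SE 0.102, adjusted p = 0.00128). This was the second lowest of all 5102 mRNAs tested, on a scale that favours abundant mRNAs. RPS12 followed at -0.89 (adjusted p = 0.0206), RPS3A at -0.74 (adjusted p = 0.00962) and RPS15A at -0.61 (adjusted p = 0.0126). RPS3A had 7.83 and 7.63 TPM in QKI7 footprints, against 12.8 and 10.9 TPM in vector footprints, a fall against an input level that did not fall. RPS23 (-0.56, adjusted p = 0.0104), RPS4X (-0.53, adjusted p = 0.0242) and RPS28 (-0.48, adjusted p = 0.0374) completed the lower group. Their footprints fell while their inputs did not pass: RPS23 had 1.62 and 1.86 TPM in QKI7 footprints, against 2.96 and 3.10 TPM in vector footprints and RPS4X 10.8 and 9.93 TPM in QKI7 footprints, against 15.4 and 15.5 TPM in vector footprints. The higher members were RPS2 (0.70, adjusted p = 0.00937), RPS15 (0.59, adjusted p = 0.0338) and RPS26 (0.52, adjusted p = 0.0201), of which RPS15 and RPS26 had falling inputs and footprints that did not pass.

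The number of translation efficiency calls changed with the processing. On the mRNA scale 1 member was lower, RPS13 (-1.11, adjusted p = 0.0141), and 5 were higher, among them RPS2 (1.03, adjusted p = 0.0197), RPS26 (0.83), RPS15 (0.82) and RPS10 (0.56), where 0.282% of all entries were lower and 1.18% higher. More entries were tested there, and the 1 added before the log2 weighed less against the rescaled values, least of all in footprints. Which of these changed the calls was not tested. RPS13 and RPS2 were called under all 17 alternative settings. RPS12, RPS15, RPS26, RPS28 and RPS4X kept the call in 3, 1, 5, 1 and 2 of the 8 fits that left out 1 library, and RPS3A, RPS15A and RPS23 in all 8.

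**Figure D4:**
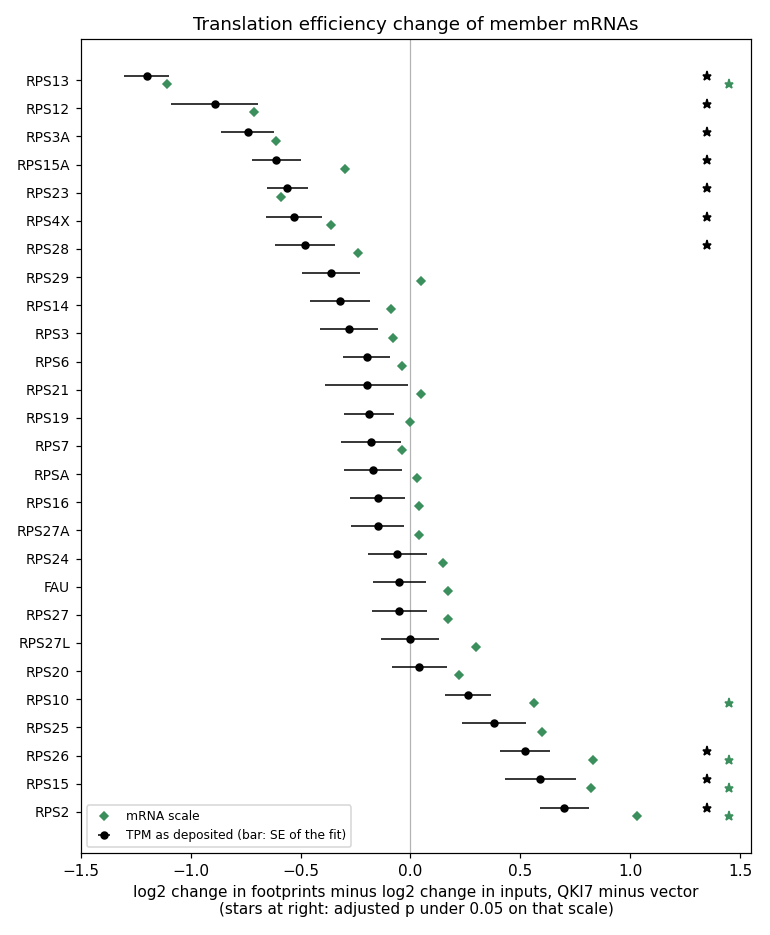
Translation efficiency change of 27 members, that is the log2 change in footprints minus that in inputs, QKI7 minus vector, with TPM as deposited (black, bars are SE of the fit) and on the mRNA scale (green); stars at the right mark adjusted p under 0.05 on that scale. RPS13 is lowest and RPS2 highest on both scales, while most members lie between -0.5 and 0.5.

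Members with and without the TOP motif at the annotated start overlapped. Of the 17 with it, 10 fell in inputs and 13 in footprints, with median log2 changes of -0.28 and -0.46. Of the 7 without it, 3 fell in inputs and 4 in footprints, with medians of -0.22 and -0.53. Among all entries tested, 5.48% fell in inputs and 4.60% in footprints. The footprint changes ran from -1.07 to -0.21 with the motif and from -0.78 to 0.05 without it. RPS2 has no promoter entry. Both sets share the libraries, and no test was made.

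Of the members, 9 hold snoRNA genes inside their span, 19 in all, as small nucleolar RNAs are cut from introns of ribosomal protein transcripts and guide rRNA modification. Among the 12 snoRNAs tested, 5 rose and 0 fell in footprint libraries, and 0 rose and 1 fell in inputs. Inside RPS2 lie SNORA64 (chromosome 16, 1962973 to 1963106), with 78.2 and 90.5 TPM in QKI7 footprints, against 62.03 and 65.6 TPM in vector footprints (log2 change 0.39, adjusted p = 0.0436), and SNORA10 (1962334 to 1962466), with 8.30 and 12.6 TPM in QKI7 footprints, against 3.86 and 6.31 TPM in vector footprints (log2 change 0.91, adjusted p = 0.063). Both were higher with QKI7, as was RPS2, and how far reads of these snoRNAs entered the RPS2 value was not tested. Of the other snoRNAs tested, some rose and some did not pass. SNORD101 of RPS12 had 83.5 and 89.3 TPM in QKI7 footprints, against 55.3 and 41.9 TPM in vector footprints (log2 change 0.83, adjusted p = 0.00491) and SNORD73A of RPS3A 5.42 and 5.01 TPM in QKI7 footprints, against 1.57 and 2.01 TPM in vector footprints (log2 change 1.16, adjusted p = 0.000176), while both hosts fell. SNORA62 of RPSA rose by 0.82 (adjusted p = 0.0451), while RPSA did not pass. SNORD100 and SNORA33 of RPS12 and SNORA6 of RPSA did not pass, with changes of 0.07, 0.09 and 0.40 (adjusted p = 0.928, 0.978 and 0.486). Footprint-sized fragments of snoRNAs need not be made by ribosomes. Hosts had a median footprint change of -0.42 and an input change of -0.06, and the 22 members without a snoRNA -0.46 and -0.35; 3 of 9 hosts and 16 of 22 other members fell in inputs, where 5.48% of all entries fell, and 5 of 9 and 16 of 22 fell in footprints, where 4.60% of all entries fell.

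**Figure D5:**
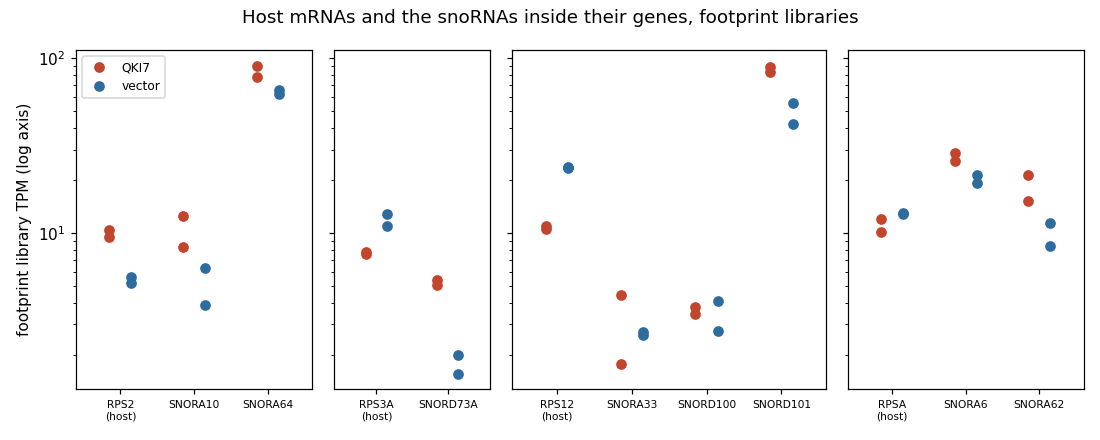
TPM in footprint libraries (log axis) of 4 member mRNAs, each at the left of its panel, and of the 8 tested snoRNAs inside their genes, with QKI7 libraries in red at the left and vector libraries in blue at the right of each pair. RPS2 and its snoRNAs lie higher with QKI7, whereas RPS3A and RPS12 are lower with QKI7 while SNORD73A and SNORD101 are higher.

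The large-subunit mRNAs are the set most like the members. Of 47, 28 fell and 1 rose in inputs and 31 fell and 0 rose in footprints, with medians relative to all entries of -0.46 and -0.47. With TPM as deposited, their translation efficiency changes ran from -0.68 (RPL29) to 0.50 (RPL38), inside the range of -1.20 to 0.70 of the small-subunit mRNAs. On the mRNA scale they ran from -0.66 (RPL27A) to 1.34 (RPL36A), against -1.11 to 1.03 for the small subunit, so the highest change was then in the large subunit. Other mRNAs known to start with a TOP motif fell in 3 and rose in 1 of 19 cases in inputs, and fell in 8 and rose in 0 of 19 in footprints, with medians relative to all entries of -0.21 and -0.27. Of all entries, 5.48% fell and 39.1% rose in inputs, and 4.60% fell and 3.60% rose in footprints. RACK1, a scaffold protein bound to the head of the small subunit, fell in footprints (8.32 ± 0.926 TPM with QKI7 and 14.2 ± 0.587 TPM with the vector, SD, n = 2 each; log2 change -0.71, adjusted p = 0.027). EIF3E, a subunit of the initiation factor that binds the small subunit, fell by 0.49 (adjusted p = 0.0167), and the non-coding host transcript GAS5 by 0.77 (adjusted p = 0.00165). EEF2, an elongation factor, had a fall of its input level by 0.38 (adjusted p = 0.00804), whereas TPT1 rose by 0.36 (adjusted p = 0.00432); on the mRNA scale 4 of the 19 fell and 0 rose in inputs, so the call of TPT1 was lost.

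The list of factors that build the small subunit held 45 genes. Of 34 tested, 4 fell and 4 rose in inputs, and 1 fell and 0 rose in footprints, with relative medians of -0.20 and -0.09. Over all entries tested, 5.48% fell and 39.1% rose in inputs, and 4.60% fell and 3.60% rose in footprints. On the mRNA scale 0 of 45 fell and 0 rose in inputs (limma; 8 lower and 0 higher at an unadjusted p under 0.05), so the input calls that follow were lost there, and 4 fell and 1 rose in footprints. NOB1, the nuclease that makes the 3′ end of the small-subunit rRNA, had 4.07 ± 0.127 TPM in QKI7 inputs and 5.85 ± 0.0919 TPM in vector inputs (SD, n = 2 each; log2 change -0.43, adjusted p = 0.0021), and WDR75, of the processome, 4.80 ± 0.226 TPM in QKI7 inputs and 3.46 ± 0.0919 TPM in vector inputs (SD, n = 2 each; log2 change 0.38, adjusted p = 0.00289). UTP11, also of the processome, was the factor that fell in footprints (log2 change -0.33, adjusted p = 0.0109). Of 10 tested regulators of TOP mRNAs, S6 kinases and quality control factors, 0 fell and 1 rose in inputs, where 5.48% of all entries fell and 39.1% rose. The gene that rose was RPS6KB1, the main S6 kinase gene (log2 change 0.24, adjusted p = 0.00954), beside a median of 0.15 over all entries. On the mRNA scale 0 of 12 passed in inputs (limma, 1 lower and 0 higher at an unadjusted p under 0.05). In footprints 0 of the 10 passed by limma as deposited (2 lower and 1 higher at an unadjusted p under 0.05); after rescaling to mRNA, 1 of 12 fell and 2 rose.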

How the data were processed

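The authors deposited 1 table of TPM values, 26902 entries by 8 libraries, each value given to 2 decimals. STAR, RSEM 1.2.31 and GRCh38 are named, without parameters, per the submitters' processing notes; how reads shared between genes and pseudogenes were split, and the strand setting, are not given in the sources used here. TPM keeps no depth, so no counting interval was computed. Entries were matched to RefSeq (GRCh38.p14) by symbol (23970) or an older symbol (1395); 1537 stayed unmatched. The members and lists were chosen with earlier results of these data known. All 31 members enter the counts, medians and correlations; 4 of them are not reported one by one here, and ranges of levels and figures cover the other 27.

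The 5806 entries that averaged 1 TPM or more across all 8 libraries were tested with limma 3.58.1 (R 4.3.3) on log2(TPM + 1), a scale that understates changes of low entries, with 4 group means, eBayes with a trend, two-sided p adjusted by Benjamini-Hochberg over all entries and a threshold of 0.05, leaving 4 residual degrees of freedom. Contrasts were QKI7 minus vector in inputs, in footprints, and footprints minus inputs. The mRNA scale left out 2599 entries for ribosomal and small RNA, histones and spike-ins and was rescaled. The fit was tested on simulated data. Replicates correlated at r of 0.990 to 0.995 over entries (log2). Members given with values in every library were, per contrast, the 6 lowest and 6 highest changes past the threshold, the 3 highest and lowest levels and ratios, and RPS2, RPS6, RPS27, RPS27L, RPS27A, FAU and RPSA. Alternatives were other pseudocounts, filters and scalings, a replicate block, and leaving out each library. Deviations of same-numbered libraries from their group means correlated at -0.0881 to 0.125, so the numbers were not taken to pair libraries.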

Additional observations from a re-analysis of the deposited data

Results flagged for a closer look

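For 10 members the change with QKI7 differed between footprints and inputs by the interaction test (limma, adjusted p under 0.05). The footprint change minus the input change was -1.20 for RPS13, -0.89 for RPS12, -0.74 for RPS3A, -0.61 for RPS15A, -0.56 for RPS23, -0.53 for RPS4X and -0.48 for RPS28 on the log2 scale. It was 0.70 for RPS2, 0.59 for RPS15 and 0.52 for RPS26. On the mRNA scale RPS13, RPS2, RPS15 and RPS26 were called as well, and RPS3A, RPS4X, RPS12, RPS15A, RPS23 and RPS28 were not.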

How the results depend on the processing

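With 2 libraries a group and no read depth, single calls near the threshold are uncertain; the cause of each shift below was not tested. No called member changed sign under any of the 17 alternatives. Members lower in inputs (19 as reported) numbered 11 with a pseudocount of 0.1, and 14 to 18 when 1 library was left out. Their relative median (-0.50) was -0.57 with a pseudocount of 0.1, -0.32 with 5, -0.39 with no filter, -0.43 with a mean of at least 5 TPM, -0.64 on the mRNA scale, -0.45 after quantile normalization, -0.54 after median-of-ratios scaling and -0.51 to -0.44 when 1 library was left out. Members lower in footprints (21) numbered 13 with no filter and 13 to 21 when 1 library was left out, 13 being without vector footprint replicate 2; 1 member was higher in each of these fits. The footprint median (-0.47) was -0.36 with a pseudocount of 5 and -0.48 to -0.45 when 1 library was left out. Members lower in translation efficiency (7) numbered 2 with a pseudocount of 0.1, 4 with no filter, 1 on the mRNA scale and 4 to 6 when 1 library was left out, 4 being without vector input replicate 1, QKI7 footprint replicate 1 or either vector footprint library. Higher ones (3) numbered 1 with a pseudocount of 0.1, 5 on the mRNA scale, 6 after median-of-ratios scaling and 1 to 3 when 1 library was left out, 1 being without QKI7 footprint replicate 2 or either vector footprint library. That median (0.01) was -0.11 with no filter, -0.07 with a mean of at least 5 TPM and 0.00 to 0.04 when 1 library was left out. With a replicate block, 15 members were lower in inputs, 15 lower and 1 higher in footprints, and 5 lower and 1 higher in translation efficiency. Some settings gave more calls. After quantile normalization 23 members were lower in inputs and 25 in footprints, and after median-of-ratios scaling 27 and 25. With a pseudocount of 5, 9 were lower and 4 higher in translation efficiency. Uncalled changes near 0 turned sign, among them in inputs RPS2 at -0.12 (mRNA scale) and -0.18 (median-of-ratios scaling) and RPSA at -0.09 to 0.01 when 1 library was left out, with RPS13 and RPS3A reaching -0.04 and -0.05 at their lowest; in translation efficiency FAU at 0.17, 0.11 and 0.13 and RPS27 at 0.17, 0.01 and 0.14 (mRNA scale, quantile normalization and median-of-ratios scaling), RPS27A at 0.04 and 0.04 and RPSA at 0.03 and 0.01 (mRNA scale and median-of-ratios scaling), RPS27L at -0.04 (pseudocount 5) and, when 1 library was left out, FAU at 0.01, RPS27 at 0.02 and RPS27L at -0.12 to -0.01 (-0.03 and -0.07 between).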

Other observations

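Of the pseudogene entries, RPS16P5 rose in inputs, with 8.24 and 8.39 TPM in QKI7 inputs and 4.83 and 5.17 TPM in vector inputs (limma log2 change 0.64, adjusted p = 0.000939), where its parent RPS16 fell. RPS10P7 rose as well (0.29, adjusted p = 0.0232), where RPS10 fell, and so did RPS14P3 (0.28, adjusted p = 0.0313), where RPS14 fell. RPS14P3 had only 0.64 and 0.85 TPM in QKI7 inputs and 0.40 and 0.47 TPM in vector inputs, so it passed the filter through its footprints. Rises were common in inputs, where 39.1% of all entries tested rose and their median log2 change was 0.15. RPS18P9 fell in footprints, with 1.72 and 1.36 TPM in QKI7 footprints and 2.72 and 2.50 TPM in vector footprints (-0.51, adjusted p = 0.00652).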
